A study of Mus musculus with 6 samples.

Results

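Of the 4944 small RNA clusters with reads in mouse pachytene spermatocytes, 378 lie on chromosome 7. A cluster is a stretch of the genome to which many small RNAs map. Every cluster with a chromosome 7 position in any of the 4 deposited small RNA tables was taken, whatever its level. The chromosome itself was chosen by a result in these libraries: it carries the cluster that stood far higher in both mutants than in wild type, called the study cluster here (chr7:132472368-132476593 of the mouse genome build mm9). The study cluster was fitted along with the rest, but its p-values follow from that choice. They are given as description only, and nothing is supported with them. The clusters have 2 kinds of name, a number (156 on this chromosome) or piC and a number (222). The labels do not say what separates the kinds.

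The 4 small RNA libraries came from pachytene spermatocytes of mouse testes, cells in the long meiotic prophase stage in which homologous chromosomes are paired. Wild type was sequenced in 2 libraries (WT replicates 1 and 2). Alkbh1-/- mice gave 1 library, and so did mice with a gene trap in both copies of Tzfp (TzfpGTi/GTi). Alkbh1-/- mice lack exon 6 of Alkbh1, and heterozygotes of this line had been backcrossed to C57/BL6. In TzfpGTi/GTi mice, made from 1 embryonic stem cell clone, a vector's splice acceptor sits upstream of exon 1 of Tzfp. Both changes are in the germline, so all cells of these animals carry them. The labels give no age, no strain for the wild type and no number of animals, so p-values measure only the spread between libraries, which may be technical. Each mutant had 1 library and no replicate.

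Alkbh1 is a dioxygenase of the AlkB family. Tzfp, also called Zbtb32, belongs to the BTB zinc finger proteins, many of which repress transcription. The study asked about their part in silencing a piRNA cluster. piRNAs are small RNAs bound by PIWI proteins in germ cells. In pachytene spermatocytes most of them are cut from long single-stranded precursors of a limited number of loci. In the mouse these loci have promoters that the transcription factor A-MYB (MYBL1) activates as cells enter the pachytene stage. Unlike fetal piRNAs, pachytene piRNAs come mostly from sequence outside transposons.

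Over the clusters of all chromosomes the WT libraries held 10193940 and 15319520 counts, the Alkbh1-/- library held 7306115 and the TzfpGTi/GTi library 14760893. Of 10 marker genes of pachytene spermatocytes, 9 were matched in the mRNA libraries of WT and Alkbh1-/- and none was at 0. Their summed levels were 8741 and 8248 CPM (counts scaled to a library total of 1000000). The 5 matched Sertoli cell markers summed to 292 in WT and 131 in Alkbh1-/-, and 4 Leydig cell markers summed to 61.1 and 129 CPM. In the same order, 6 spermatid markers summed to 1034 and 1220 CPM, and 4 spermatogonia markers to 51.8 and 64.7 CPM. Single markers did not all follow their sums. The spermatid markers Tnp1, Tnp2 and Prm1 and the spermatogonia marker Dmrt1 were lower in Alkbh1-/-. The pachytene markers Sycp1, Hormad1, Piwil1, Spo11 and Tdrd1 were higher. The part of cells other than pachytene spermatocytes in the small RNA results was not tested. In bulk libraries fewer cells of a type and less RNA per cell cannot be told apart. The small RNA tables give neither read lengths nor PIWI binding, so all values are of small RNA reads in clusters. Alkbh1 itself stood at 20.8 and 20.4 CPM. That count covers the whole gene, of which the mutant lacks 1 exon, so it checks no label. By their naming scheme, the deposited tables of WT replicate 1 and Alkbh1-/- go together, as do those of TzfpGTi/GTi and WT replicate 2. No label calls this a batch. Each mutant is therefore set against each WT library.

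The deposited tables list 341 and 326 of the chromosome 7 clusters in WT, 326 in Alkbh1-/- and 338 in TzfpGTi/GTi. All 4 tables list 282 of them, 66 are in 2 or 3 tables and 30 are in 1. The first starts at position 3581522 and the last ends at 152439638. The numbered clusters have a median length of 30400 bp and the piC clusters 24643 bp. A summed count of 40 or more over the 4 libraries was reached by 185 clusters (22 numbered and 163 piC), which were fitted. The other 193 held between 0.0263% and 0.0585% of the chromosome's counts in a library, and none exceeded 23.9 counts in any library. No cluster of the chromosome was made only of mutant reads beyond a few counts. The 18 clusters with no WT count reached at most 1.7 counts in Alkbh1-/- and 2.5 in TzfpGTi/GTi.

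Chromosome 7 held 11.1% of all cluster counts in WT replicate 1 (95% Wilson interval 11.07 to 11.11) and 11.3% in WT replicate 2 (11.26 to 11.29). Its share was 10.1% in Alkbh1-/- (10.10 to 10.14) and 11.2% in TzfpGTi/GTi (11.16 to 11.20). These intervals and all those below reflect counting alone, because copies made by PCR were not told apart. The Alkbh1-/- share lay below both WT libraries, and the TzfpGTi/GTi share lay between them. Chromosome 17 took 15.96% of counts in Alkbh1-/-, against 11.2%, 10.8% and 11.7% in the libraries of WT replicates 1 and 2 and TzfpGTi/GTi. Outside chromosome 17, the chromosome 7 share was 12.5% and 12.6% in the WT libraries, 12.04% in Alkbh1-/- and 12.7% in TzfpGTi/GTi. The Alkbh1-/- share was thus still the lowest. Without the study cluster the chromosome's share was 10.1% in Alkbh1-/- and 10.8% in TzfpGTi/GTi, against 11.1% and 11.3% in WT, so both mutants then lay below both WT libraries.

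Nearly all of these counts came from 3 numbered clusters within 3.98 Mb. Cluster 1024 (chr7:77013501-77094500), cluster 1028 (chr7:80234601-80305400) and cluster 1031 (chr7:80908701-80998300) cover 241 kb together. They held 92.8% and 92.5% of the chromosome's counts in WT replicates 1 and 2, 92.5% in Alkbh1-/- and 89.0% in TzfpGTi/GTi. The chromosome's counts include the study cluster, which held 3.47% of them in TzfpGTi/GTi and at most 0.251% in the other libraries. The 10 clusters with most WT reads held 98.7% and 98.9% in WT, 98.3% in Alkbh1-/- and 95.3% in TzfpGTi/GTi. The profile of the chromosome is therefore a profile of very few loci, with many clusters of low counts around them.

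Levels of clusters are given as CPM of the library's cluster counts after TMM scaling, and are compared between clusters only per kilobase (kb). Cluster 1031, the richest, stood at 491 and 583 CPM per kb in WT replicates 1 and 2, at 481 in Alkbh1-/- and at 515 in TzfpGTi/GTi. Cluster 1024 stood at 373 and 404 CPM per kb in WT, 302 in Alkbh1-/- and 359 in TzfpGTi/GTi. Cluster 1028 stood at 347 and 412 in WT, 298 in Alkbh1-/- and 351 in TzfpGTi/GTi. The widest gap between a mutant and a WT library in these 3 clusters was 1.38-fold, at 1028 in Alkbh1-/- against WT replicate 2. Next by share of WT reads came cluster 1000 (chr7:60144701-60185300), with 3561 and 5176 CPM in WT, 3473 in Alkbh1-/- and 4645 in TzfpGTi/GTi. Per kb these are 87.7 and 127 in WT, 85.5 in Alkbh1-/- and 114 in TzfpGTi/GTi. Cluster 969 (chr7:30903001-30943000) had 1720 and 1765 CPM in WT, 1316 in Alkbh1-/- and 1549 in TzfpGTi/GTi. Per kb these are 43.0 and 44.1 in WT, 32.9 in Alkbh1-/- and 38.7 in TzfpGTi/GTi.

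All 5 of these clusters were lower in Alkbh1-/- than in both WT libraries, also as plain shares of the library's counts. Their fitted log2 fold changes ran from -0.41 ± 0.31 (SE) at 969 to -0.16 ± 0.27 at 1031. None passed the test (edgeR quasi-likelihood, smallest adjusted p = 0.615). In TzfpGTi/GTi 2 of the 5 were below both WT libraries and 3 lay between them, with log2 fold changes from -0.17 ± 0.31 at 969 to 0.09 ± 0.33 at 1000. As plain shares of counts, 3 of the 5 were below both WT libraries in TzfpGTi/GTi. The piC cluster with the most WT reads, piC_579 (chr7:39214819-39252834), had 248 and 303 CPM in WT, 161 in Alkbh1-/- and 294 in TzfpGTi/GTi. Its log2 fold change in Alkbh1-/- was -0.77 ± 0.36 (edgeR adjusted p = 0.42).

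**Figure D1:**
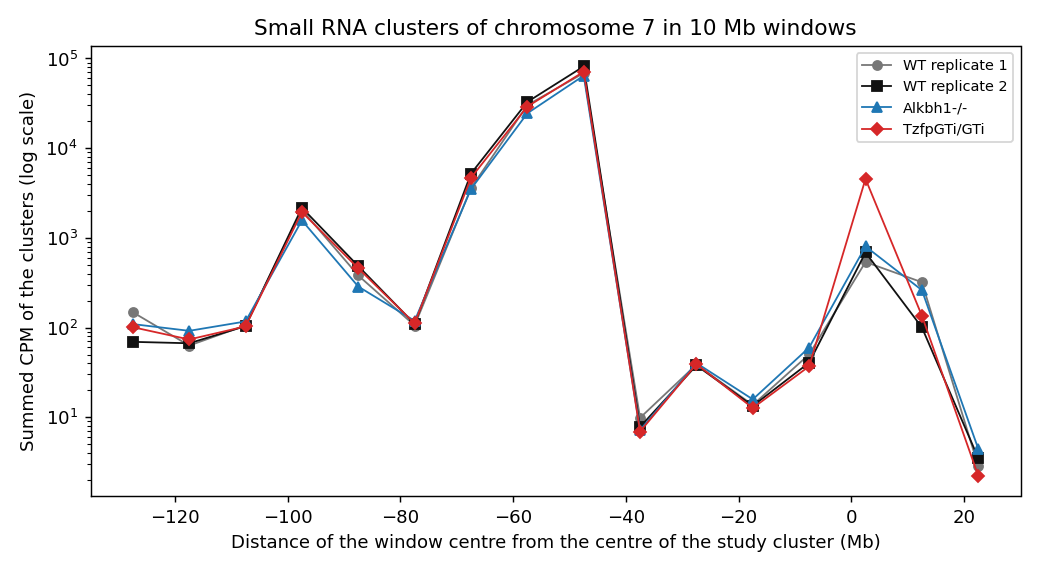
Summed CPM (log scale) of the clusters in each of 16 windows of 10 Mb, by library, against the distance of the window centre from the centre of the study cluster. The 4 libraries keep one shape, and the window that holds the study cluster is the one where TzfpGTi/GTi stands apart, at 4543 CPM against 538 and 688 in WT.

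In windows of 10 Mb the chromosome has 1 main peak. The window from 80 to 90 Mb held 64.6% and 66.1% of the chromosome's counts in WT, 67.2% in Alkbh1-/- and 63.2% in TzfpGTi/GTi. The window from 70 to 80 Mb held 28.4%, 26.5%, 25.6% and 25.9% in the same order. Beyond them lies a stretch of 4 windows, from 90 to 130 Mb, whose 65 clusters together reached 112 and 99.7 CPM in WT, 123 in Alkbh1-/- and 95.9 in TzfpGTi/GTi. The level then climbs again in the window from 130 to 140 Mb, which holds the study cluster. That window had 538 and 688 CPM in WT, 804 in Alkbh1-/- and 4543 in TzfpGTi/GTi. Without the study cluster it had 538, 681, 563 and 644 CPM, and both mutants lay between the WT libraries. The window's separation thus came from 1 cluster of 37.

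Of the 16 windows, Alkbh1-/- lay above both WT libraries in 8, below both in 6 and between them in 2. The windows from 30 to 40 Mb and from 60 to 90 Mb, which hold the 5 clusters with most WT reads, were all among the lower ones. TzfpGTi/GTi lay above both in 4 windows, below both in 7 and between in 5. The first window, from 0 to 10 Mb, stood at 148 CPM in WT replicate 1 and 69.4 in WT replicate 2, with 109 in Alkbh1-/- and 101 in TzfpGTi/GTi between them. The 2 WT libraries differed there by more than either mutant differed from either of them.

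**Figure D2:**
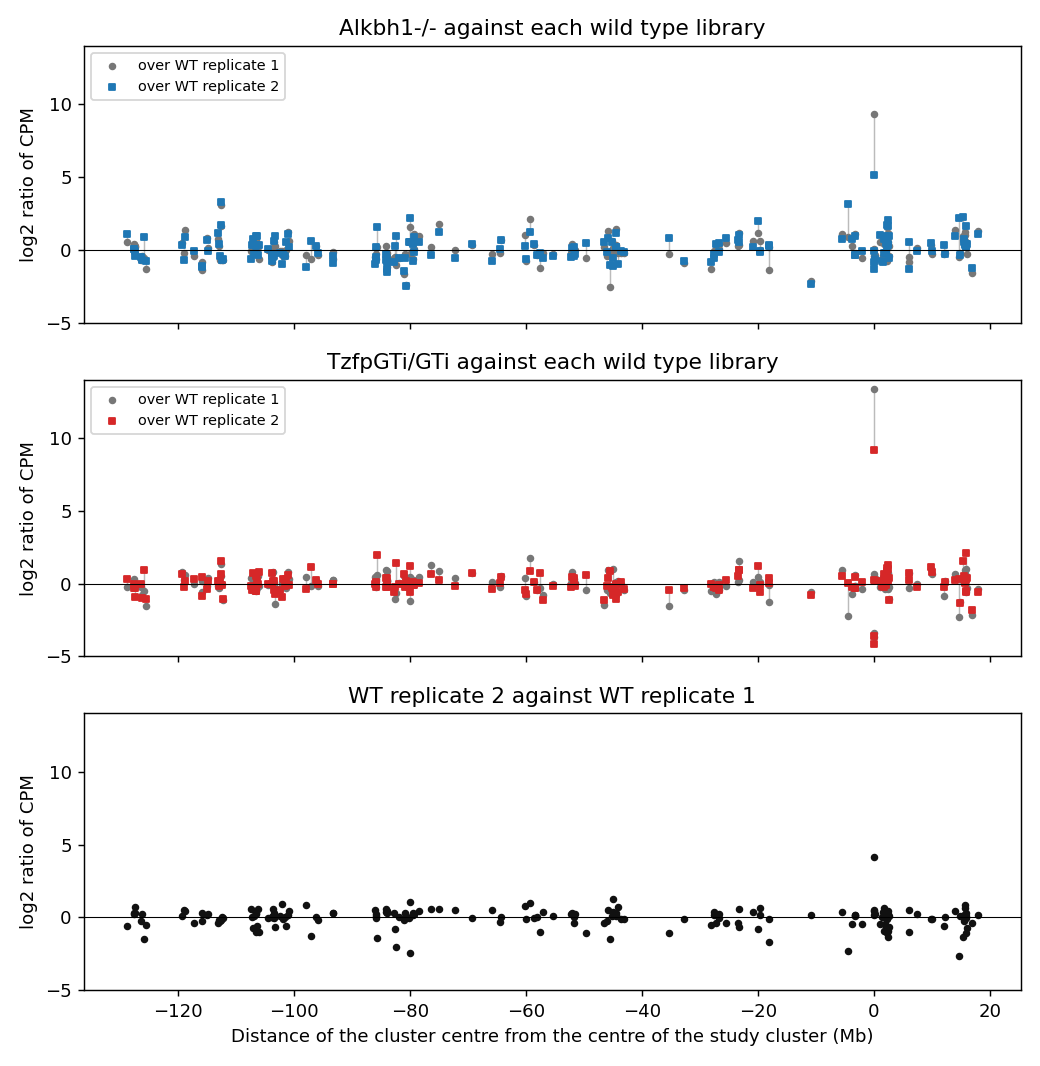
log2 ratio of CPM for each of the 185 fitted clusters against the distance of the cluster's centre from the centre of the study cluster: Alkbh1-/- over each WT library (top), TzfpGTi/GTi over each WT library (middle) and the WT pair (bottom). Grey lines in the top and middle panels join the values of 1 cluster. The study cluster stands apart in both mutants, and in the WT pair too.

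Across the 185 fitted clusters, the log2 ratio of WT replicate 2 to WT replicate 1 had an SD of 0.70, and 164 clusters (88.6%) were within 2-fold. Over all 2209 fitted clusters these were 0.71 and 87.5%. The log2 ratios of Alkbh1-/- had an SD of 1.03 over WT replicate 1 and 0.95 over WT replicate 2, and those of TzfpGTi/GTi 1.23 and 0.99. Without the 4 clusters of the study cluster's locus (181 left) the SD was 0.63 for the WT pair, 0.78 and 0.87 for Alkbh1-/-, and 0.64 and 0.60 for TzfpGTi/GTi. Along the rest of the chromosome TzfpGTi/GTi was thus about as far from each WT library as these were from each other. Alkbh1-/-, the library with the fewest counts, was somewhat further. With the locus included, its fitted log2 fold changes had an SD of 0.89 under 200 summed counts, beside 0.65 for the WT pair's ratio. From 200 to 2000 summed counts these were 0.53 and 0.49. The TzfpGTi/GTi SDs were 0.73 and 0.56, but each includes a locus cluster that was far lower there. The part of depth was not tested. On the other chromosomes the SD of the log2 ratios was 0.71 for the WT pair, 0.80 and 0.93 for Alkbh1-/-, and 0.61 and 0.57 for TzfpGTi/GTi.

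The chromosome's median lay near 0 in both mutants. The median fitted log2 fold change was -0.04 in Alkbh1-/-, with 88 of 185 clusters above 0, beside 0.0038 over all 2209 fitted clusters. In TzfpGTi/GTi it was 0.0055, with 95 of 185 above 0, beside -0.0049 over all. Medians of the 19 autosomes ranged from -0.23 to 0.32 in Alkbh1-/- and from -0.21 to 0.07 in TzfpGTi/GTi, and chromosome 7 ranked 12 and 7 among them. The sex chromosomes, with 15 fitted clusters on X and 1 on Y, were left out of this ranking. Numbered and piC clusters had medians of -0.26 and 0.02 in Alkbh1-/- and of -0.11 and 0.02 in TzfpGTi/GTi.

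Both mutants shared the WT controls, so their values are given side by side only. In TzfpGTi/GTi 2 chromosome 7 clusters passed an adjusted p of 0.05 (edgeR), the study cluster and its left neighbour, where 0.0905% of all fitted clusters passed. This is the contrast by which the chromosome was chosen, and nothing is read from the count. No chromosome 7 cluster passed in Alkbh1-/-, where 0.272% of all fitted clusters did. DESeq2's Wald test called 2 in TzfpGTi/GTi, where it called 0.0905% of all clusters. In Alkbh1-/- it called none of the 49 chromosome 7 clusters to which it gave an adjusted p, where it called 3.6% of 667 in all. With no scaling beyond totals, with a floor of 200 summed counts or with overlapping clusters counted once, neither TzfpGTi/GTi call passed, and 0 clusters passed on any chromosome. With DESeq2's size factors 2 clusters passed in Alkbh1-/-, the study cluster and piC_551, where 0.634% of all clusters did. Without a filter on low counts 3 of 353 passed, where 0.901% of all did. At an unadjusted p under 0.05 (edgeR), there were 15 chromosome 7 clusters in Alkbh1-/- (8.11%), below the 12.8% of all fitted clusters. Of the 15, 13 were higher, beside 168 of 283 over all chromosomes. In TzfpGTi/GTi there were 8 (4.32%), 5 of them higher, where the share of all was 1.86% and 30 of 41 were higher. Of the 4 clusters of the study cluster's locus, the Alkbh1-/- count holds 1, the study cluster. The TzfpGTi/GTi count holds 3, the study cluster and both clusters on its left.

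The locus of the study cluster spans 73.5 kb (chr7:132435801-132509300) and holds 4 clusters in a row. They are cluster 1081, a left neighbour, the study cluster and a right neighbour, which the plot of levels per length labels with their deposited names. Cluster 1081 ends 100 bp before the left neighbour, which ends 13567 bp before the study cluster, and the right neighbour starts 16407 bp after it. In the TzfpGTi/GTi library the members of this row differed from WT in opposite directions. The study cluster was far higher, the 2 clusters on its left were lower, and the right neighbour was 1.62-fold and 1.20-fold above the WT libraries. In Alkbh1-/- the study cluster was higher by less, and the left neighbour lay between the WT libraries.

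Cluster 1081 (chr7:132435801-132448200) had 36 and 69 counts in the WT libraries, 15 in Alkbh1-/- and 4 in TzfpGTi/GTi. Scaled, these are 3.39 and 4.93 CPM in WT, 1.94 in Alkbh1-/- and 0.273 in TzfpGTi/GTi. Both mutants were below both WT libraries. The TzfpGTi/GTi level was 12.4 times lower than WT replicate 1 (95% exact interval 4.45 to 48.0) and 18.1 times lower than WT replicate 2 (6.75 to 68.2). The Alkbh1-/- level was 1.74 times lower than WT replicate 1 (0.931 to 3.43), an interval that includes no difference, and 2.54 times lower than WT replicate 2 (1.44 to 4.78).

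The left neighbour (chr7:132448301-132458800) had 257.5 and 383 counts in WT, 199.3 in Alkbh1-/- and 34 in TzfpGTi/GTi. Scaled, these are 24.2 and 27.4 CPM in WT, 25.8 in Alkbh1-/- and 2.32 in TzfpGTi/GTi. The WT libraries differed by 1.13-fold, Alkbh1-/- lay between them, and TzfpGTi/GTi lay far below. It was 10.4 times lower than WT replicate 1 (7.31 to 15.5) and 11.8 times lower than WT replicate 2 (8.30 to 17.3). The fitted log2 fold changes were -3.47 ± 0.40 (SE) in TzfpGTi/GTi and within 0.01 of 0 in Alkbh1-/-.

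The study cluster, for which the chromosome was chosen, had 4 counts in WT replicate 1 and 94 in WT replicate 2. It had 1857.5 counts in Alkbh1-/- and 57188.2 in TzfpGTi/GTi. Scaled, these are 0.376 and 6.72 CPM in WT, 241 in Alkbh1-/- and 3899 in TzfpGTi/GTi. The order of the 4 libraries is clear, but the WT libraries themselves lay 17.8-fold apart. The size of any fold therefore rests on which WT library it is set against. Alkbh1-/- was 640-fold above WT replicate 1 (95% exact interval 249 to 2350) and 35.8-fold above WT replicate 2 (29.1 to 44.6). TzfpGTi/GTi was 580-fold above WT replicate 2 (474 to 718). Over WT replicate 1, with its 4 counts, the interval ran from 4046-fold to 38022-fold.

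The right neighbour (chr7:132493001-132509300) had 1609.55 and 2861.25 counts in WT, 890.0 in Alkbh1-/- and 3597 in TzfpGTi/GTi. Scaled, these are 151 and 204 CPM in WT, 115 in Alkbh1-/- and 245 in TzfpGTi/GTi. Alkbh1-/- lay below both WT libraries and TzfpGTi/GTi above both. The gaps to the nearer WT library were 1.31-fold and 1.20-fold, each smaller than the 1.35-fold gap within the WT pair. The fitted log2 fold changes were -0.63 ± 0.37 in Alkbh1-/- (edgeR adjusted p = 0.521) and 0.46 ± 0.36 in TzfpGTi/GTi (edgeR adjusted p = 0.99997).

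**Figure D3:**
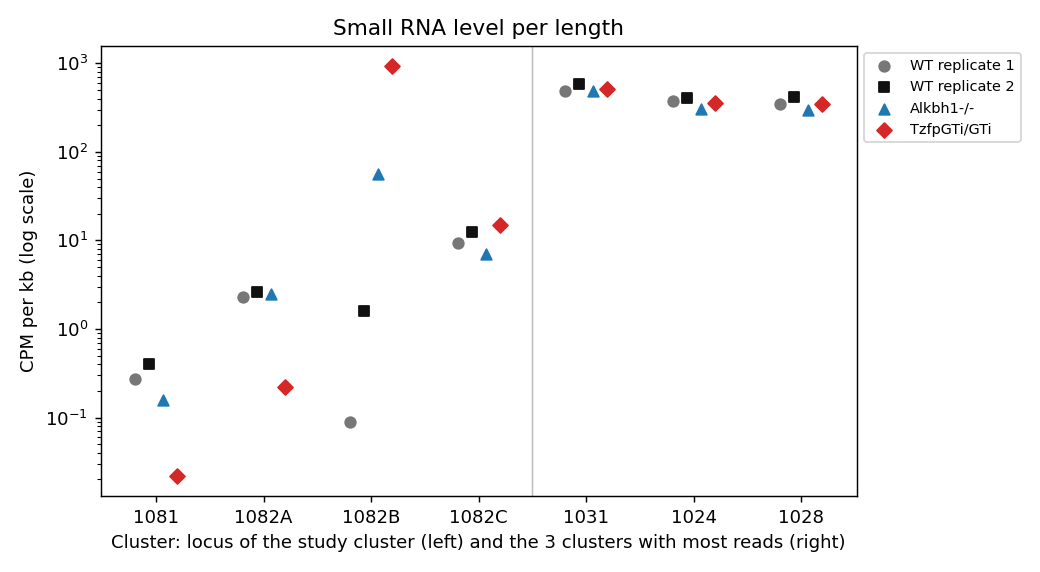
CPM per kb (log scale) by library for the 4 clusters of the study cluster's locus in chromosome order and for the 3 clusters with most reads. In TzfpGTi/GTi the study cluster, at 923 CPM per kb, stands above cluster 1031 at 515, while 1081 and the left neighbour lie below their WT values.

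The make-up of the locus differed accordingly. In WT the right neighbour held 84.4% and 84.0% of the counts of the 4 clusters, and the study cluster 0.210% and 2.76%. In Alkbh1-/- the study cluster held 62.7% and the right neighbour 30.0%. In TzfpGTi/GTi these were 94.0% and 5.91%. The summed level of the locus was 179 and 243 CPM in WT, 384 in Alkbh1-/- and 4146 in TzfpGTi/GTi. Without the study cluster it was 179 and 237 CPM in WT, 143 in Alkbh1-/- and 248 in TzfpGTi/GTi.

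Per length, the study cluster stood at 0.0891 and 1.59 CPM per kb in WT, 56.9 in Alkbh1-/- and 923 in TzfpGTi/GTi. Among the 378 clusters of the chromosome it ranked 129 and 18 in WT, 5 in Alkbh1-/- and 1 in TzfpGTi/GTi. Among all 4944 clusters it ranked 1584 and 258 in WT, 59 in Alkbh1-/- and again 1 in TzfpGTi/GTi. The next densest cluster in that library, 751 on chromosome 5, had 729 CPM per kb. In summed counts the study cluster was smaller, with 3.47% of the chromosome's counts in TzfpGTi/GTi and 0.251% in Alkbh1-/-, against 0.000354% and 0.00544% in WT.

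These ranks rest on how the cluster's edges were drawn. Of the 2260 numbered clusters of all chromosomes, 2259 begin and end on a grid of 100 bp, and the study cluster is the 1 that does not. At 4.23 kb it is also the 2nd shortest of the 156 numbered clusters of chromosome 7, whose median length is 30.4 kb. With the same counts over 7.56 kb, its level per kb in TzfpGTi/GTi would equal that of cluster 1031. The length by which counts are divided cancels in fold changes between libraries. The fold changes still rest on the counts inside these edges, and other edges were not tried.

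The study cluster's fold change stood far from those of the clusters beside it. Since that fold change chose the chromosome, this is a description. Among the 29 pairs of adjacent fitted clusters that do not overlap and lie within 50 kb, the median absolute difference in log2 fold change was 0.63 in Alkbh1-/- and 0.55 in TzfpGTi/GTi, beside 0.42 for the log2 ratio of the WT pair. Between the left neighbour and the study cluster the difference was 13.5 in TzfpGTi/GTi and 6.04 in Alkbh1-/-. Between the study cluster and the right neighbour it was 9.59 and 6.67. The same 2 pairs also stood out in the ratio of the WT libraries, with differences of 3.98 and 3.72. The remaining pair of the locus, 1081 and the left neighbour, differed by 0.42 in TzfpGTi/GTi and 1.10 in Alkbh1-/-. The largest difference in a pair without the study cluster was 1.15 in TzfpGTi/GTi, 1.94 in Alkbh1-/- and 1.60 in the WT pair.

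Within 500 kb of the study cluster, 4 more clusters were listed. Of these, piC_635 (chr7:132634824-132649018) had 16 and 25 counts in WT, 9 in Alkbh1-/- and 29.5 in TzfpGTi/GTi. The Alkbh1-/- level of 1.17 CPM lay below the WT levels of 1.51 and 1.79, and the TzfpGTi/GTi level of 2.01 lay above, both within counting error. The other 3 (1080, piC_2108 and 1083) had at most 8 counts in any library. Of these, piC_2108 had 8 and 3 counts in WT, 5 in Alkbh1-/- and 1 in TzfpGTi/GTi. The TzfpGTi/GTi level was 11.0 times lower than WT replicate 1 (95% exact interval 1.48 to 490). Against WT replicate 2 it was 3.14 times lower (0.252 to 165), an interval that includes no difference.

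Few clusters lay 2-fold outside both WT libraries, and most of these had low counts. In Alkbh1-/- 11 of the 185 fitted clusters (5.95%) were at least 2-fold above both WT libraries, where 5.3% of all fitted clusters were. A further 7 (3.78%) were at least 2-fold below both, where 4.84% of all were. These shares are near the background. In TzfpGTi/GTi 4 clusters (2.16%) were at least 2-fold above both WT libraries, where 0.634% of all were, and 8 (4.32%) were at least 2-fold below both, where 1.31% of all were. The study cluster is 1 of the 11 higher in Alkbh1-/-. Of the 12 in TzfpGTi/GTi, 3 are the study cluster, its left neighbour and 1081. Away from the locus, the 10 higher clusters in Alkbh1-/- had a median of 17.5 counts per library and the 7 lower ones 16.3, against 39.6 for the fitted clusters of the chromosome. In TzfpGTi/GTi the 6 lower ones had a median of 11.5, and the 3 higher ones, piC_657, piC_551 and piC_2119, had 16.5, 20.7 and 203.

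The largest fitted fold change outside the study cluster's locus was in Alkbh1-/-, at piC_551 (chr7:19881724-19895194), which had 7 and 8 counts in WT, 42.9 in Alkbh1-/- and 25 in TzfpGTi/GTi. Scaled, these are 0.659 and 0.572 CPM in WT, 5.56 in Alkbh1-/- and 1.70 in TzfpGTi/GTi. Both mutants were above both WT libraries, which were nearly equal. The fitted log2 fold change was 3.17 ± 0.50 (SE) in Alkbh1-/- and 1.46 ± 0.53 in TzfpGTi/GTi. Neither passed (edgeR adjusted p = 0.0519 and 0.99997). With DESeq2's size factors the edgeR adjusted p in Alkbh1-/- was 0.0400. Against each WT library, Alkbh1-/- was 8.44-fold (95% exact interval 3.77 to 22.3) and 9.72-fold (4.53 to 24) higher. The filter of 40 summed counts and the naming floor of 20 mean counts both include the mutant libraries. With both mutants at its WT levels, piC_551 would have fallen under that filter. Its mean of 20.7 counts also lay just above the naming floor. It was thus fitted and named because of its mutant counts, and its p-values and folds carry that selection.

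Cluster piC_551 lies inside piC_2024 (chr7:19869345-19955337), so the pair shares reads and is not 2 separate results. The longer cluster had 50.5 and 62 counts in WT, 112.6 in Alkbh1-/- and 102.25 in TzfpGTi/GTi. Its levels were 4.75 and 4.43 CPM in WT, 14.6 in Alkbh1-/- and 6.97 in TzfpGTi/GTi. The log2 fold change in Alkbh1-/- was 1.68 ± 0.32 (edgeR adjusted p = 0.0949).

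Other clusters that were higher in Alkbh1-/- than in both WT libraries included piC_571 (chr7:31307452-31355514), at 5.05 and 5.74 CPM in WT, 12.1 in Alkbh1-/- and 8.64 in TzfpGTi/GTi. Cluster piC_2064 (chr7:73190223-73253770) stood at 0.847 and 1.64 CPM in WT, 3.76 in Alkbh1-/- and 2.93 in TzfpGTi/GTi. In the lower direction, piC_2019, piC_585, piC_2044, piC_544 and piC_2087 had log2 fold changes in Alkbh1-/- from -1.30 ± 0.65 to -0.98 ± 0.43. Their smallest edgeR adjusted p was 0.391. In TzfpGTi/GTi, piC_2117, piC_2067 and piC_566 had log2 fold changes from -1.10 ± 0.52 to -0.95 ± 0.53, and piC_2058 had 0.94 ± 0.49. None passed.

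The distal end of the chromosome, from 140 to 152 Mb, holds 35 clusters, of which 26 are piC clusters and 19 were fitted. It had been singled out with earlier results of these libraries known, so its values are a description. The median log2 fold change of the 19 was 0.38 in Alkbh1-/-, with 13 above 0. The other 166 fitted clusters had a median of -0.12, with 75 above 0. In TzfpGTi/GTi the end's median was 0.33, with 12 of 19 above 0, beside -0.00086 and 83 of 166 for the rest. The log2 ratio of WT replicate 2 to WT replicate 1 had a median of -0.03 over the 19.

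No cluster of the end was called in either mutant, and their directions were mixed. Their fitted log2 fold changes ran from -1.57 to 1.52 in Alkbh1-/- and from -1.91 to 1.47 in TzfpGTi/GTi. In Alkbh1-/- 12 of the 19 lay above both WT libraries and 4 below both. In TzfpGTi/GTi 11 lay above both and 6 below both. Of the 19, 5 overlap a cluster with as many or more reads. Among the other 14, the medians of the same fitted values were 0.36 in Alkbh1-/- (9 above 0) and 0.09 in TzfpGTi/GTi (8 above 0). The TzfpGTi/GTi median thus came down to near 0 once overlapping clusters were counted once.

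**Figure D4:**
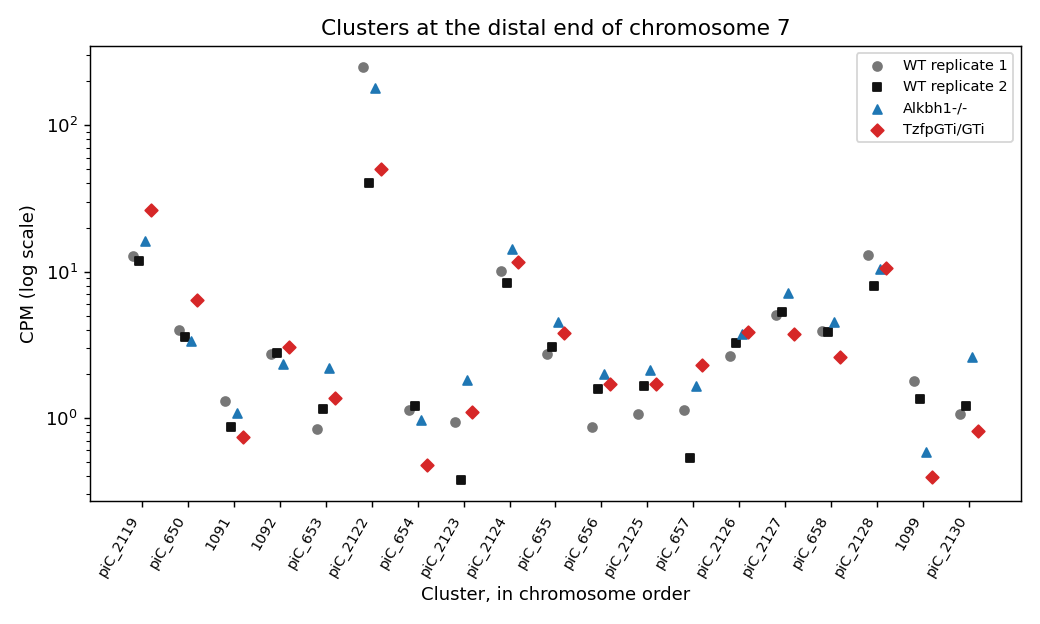
CPM (log scale) of the 19 fitted clusters of the distal end in chromosome order, by library. Cluster piC_2122 has the highest CPM, not set per length, and there WT replicate 1 (251 CPM) and Alkbh1-/- (179) lie together above TzfpGTi/GTi (50.5) and WT replicate 2 (40.1).

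The summed level of the end was governed by piC_2122 (chr7:147115525-147157934). It had 2671.5 and 561.8 counts in WT, 1382.2 in Alkbh1-/- and 741.5 in TzfpGTi/GTi. Scaled, these are 251 and 40.1 CPM in WT, 179 in Alkbh1-/- and 50.5 in TzfpGTi/GTi. The WT libraries differed by 6.26-fold, Alkbh1-/- lay near WT replicate 1 and TzfpGTi/GTi near WT replicate 2. This cluster held 77.7% and 38.5% of the end's counts in WT, 67.3% in Alkbh1-/- and 36.6% in TzfpGTi/GTi.

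With piC_2122 the end summed to 324 and 104 CPM in WT, 266 in Alkbh1-/- and 138 in TzfpGTi/GTi, and both mutants lay between the WT libraries. Without it the sums were 72.2 and 64.03 CPM in WT, 87.1 in Alkbh1-/- and 87.6 in TzfpGTi/GTi, and both mutants lay above. Leaving out also the clusters that overlap another with as many or more reads, they were 59.5 and 51.3 CPM in WT, 70.7 in Alkbh1-/- and 70.7 in TzfpGTi/GTi. The direction of the summed end thus turned on 1 cluster on which the WT libraries disagree.

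Next at the end by share of WT reads was piC_2119 (chr7:142414717-142450909), with 12.8 and 11.9 CPM in WT, 16.1 in Alkbh1-/- and 26.3 in TzfpGTi/GTi. The WT libraries differed by 1.08-fold and TzfpGTi/GTi lay about 2-fold above both. Its log2 fold change was 1.09 ± 0.31 (SE) in TzfpGTi/GTi (edgeR adjusted p = 0.99997) and 0.38 ± 0.32 in Alkbh1-/- (edgeR adjusted p = 0.642). Cluster piC_2128 (chr7:148629971-148679038) had 12.9 and 7.91 CPM in WT, 10.4 in Alkbh1-/- and 10.6 in TzfpGTi/GTi, both between the WT libraries. Cluster piC_2124 (chr7:148024031-148048547) had 10.02 and 8.29 CPM in WT, 14.2 in Alkbh1-/- and 11.7 in TzfpGTi/GTi, both above them. Cluster piC_2127 (chr7:148391718-148414340) had 5.06 and 5.29 CPM in WT and 7.13 in Alkbh1-/-, but 3.75 in TzfpGTi/GTi, below both WT libraries.

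The lowest fitted values of the end in both mutants were at cluster 1099 (chr7:149387801-149418200), which was singled out after its values were seen. It had 19.05 and 19 counts in WT, 4.5 in Alkbh1-/- and 5.8 in TzfpGTi/GTi. Scaled, these are 1.79 and 1.36 CPM in WT, 0.583 in Alkbh1-/- and 0.395 in TzfpGTi/GTi, so both mutants lay at least 2-fold below both WT libraries. The log2 fold changes were -1.57 ± 0.80 (SE) and -1.91 ± 0.73, and neither passed (edgeR adjusted p = 0.444 and 0.99997).

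Clusters on which the WT libraries disagreed were not particular to the end. On the chromosome, 21 of the 185 fitted clusters (11.4%) differed at least 2-fold between them, beside 12.4% of all fitted clusters. In 12 of the 21 Alkbh1-/- was nearer WT replicate 1, in 8 TzfpGTi/GTi was nearer WT replicate 2, and in 6 both held. Over all fitted clusters these were 174, 145 and 80 of 275. The pattern of piC_2122 was thus 1 of several among such clusters.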

How the data were processed

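The deposited small RNA tables hold expected counts of reads per cluster with mm9 positions, which the authors left unscaled and which need not be whole. The deposited mRNA table holds whole-number counts per gene. The submitters' processing notes list CASAVA 1.3, Novoalign, TopHat and bedtools but no roles for them. How reads with several positions were split, and how cluster edges were drawn, was not given in the labels or headers. A cluster that a table does not list was taken as 0. No column of another series was present.

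Expected counts were rounded. edgeR 4.0.16 in R 4.3.3 fitted the 2209 clusters of all chromosomes with a summed count of 40 or more, with 1 coefficient per genotype, TMM scaling of the full cluster totals (factors 0.913 to 1.06), a quasi-likelihood test and Benjamini-Hochberg adjustment over all 2209 at 0.05. Its 1 residual degree of freedom came from the WT pair, and the mutants were taken to vary as WT does (biological coefficient of variation 0.257, median prior degrees of freedom 6.81). Standard errors were derived from the F statistic. The fit was also run on simulated counts with the same spread for every cluster and the same mean level in both WT libraries. That run does not cover clusters on which the WT libraries disagree as widely as on the study cluster. CPM is the deposited value over the scaled library total. Ratios have exact Clopper-Pearson intervals and shares Wilson intervals, both at 95%. A count of 0 allows up to 3 counts, or 1.96e-05% to 4.11e-05% of a library. DESeq2 1.42.0, Python 3.11.15, numpy 2.4.6, pandas 2.3.3 and scipy 1.17.1 were also used.

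Named clusters were those within 500 kb of the study cluster, the 10 with the highest mean WT share, those called, the 5 per mutant and direction with a mean of 20 or more counts furthest outside both WT libraries, and the 5 of the distal end with the highest mean WT share. Members and lists were chosen with earlier results of these data known. Alternatives changed the scaling, the filter on low counts, the treatment of overlapping clusters, the test, the samples in the fit and the WT library used. Cluster 751 and chromosome 17 were named after their values were seen.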

Additional observations from a re-analysis of the deposited data

How the results depend on the processing

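The called clusters depended on the setting. In TzfpGTi/GTi the 2 calls, the study cluster and its left neighbour, became 0 with no scaling beyond totals (adjusted p = 0.996 and 0.785), 0 with a floor of 200 counts (0.172 and 0.0682) and 0 with overlaps counted once (0.205 and 0.127). In these 3 settings their log2 fold changes ran from 10.11 to 10.14 and from -3.47 to -3.44. Without WT replicate 2, the log2 fold change of the study cluster became 13.30 in TzfpGTi/GTi and 9.27 in Alkbh1-/-. In Alkbh1-/- the 0 calls became 2 with DESeq2 size factors (the study cluster and piC_551, adjusted p = 0.0400 for both), where 14 of 2209 clusters were called in all. They became 3 without a filter, where 41 of 4553 were called, and 1 (piC_551, 0.0484) with totals over the fitted clusters, an alternative chosen after seeing the data, where 11 of 2209 were.

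The chromosome's median log2 fold change in Alkbh1-/- was 0.051 with no scaling, which moves the median of all clusters by 0.11, and from -0.046 to 0.070 with either WT replicate left out. In TzfpGTi/GTi it was 0.032 with no scaling, -0.016 without a filter and 0.031 with overlaps counted once. The median of the distal end in Alkbh1-/- was 0.49 with no scaling, 0.30 without a filter, and 0.40 to 0.48 with either WT replicate left out. In TzfpGTi/GTi it was 0.37 with no scaling, 0.17 without a filter, 0.17 with a floor of 200 counts, 0.12 with overlaps counted once in the fit too, and 0.21 to 0.22 with either WT replicate left out.

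Counts at 2-fold followed the filter. Without one, 36 clusters were higher and 30 lower in Alkbh1-/-, and 29 higher and 23 lower in TzfpGTi/GTi. These are of 353 clusters, and over all 4553 they were 457, 489, 322 and 343. With a floor of 200 counts the chromosome's counts were 5, 0, 1 and 1 of 77, beside 73, 31, 1 and 1 of 990. With overlaps counted once, the chromosome's share of counts was 11.65%, 11.85%, 10.67% and 11.74% in WT replicates 1 and 2, Alkbh1-/- and TzfpGTi/GTi. With all clusters counted, overlapping ones included, the share without the study cluster was 10.79% in TzfpGTi/GTi. Of the fold changes of single named clusters under the alternatives with a test, 424 kept their direction and their side of the threshold, 7 newly passed, 6 no longer passed and 14 changed sign. None of the 14 was called, and their values with all libraries and settings as reported lay within 0.13 of 0. With no scaling the left neighbour became 0.11, piC_2058 0.0043 and piC_2128 0.092 in Alkbh1-/-, and piC_585 became 0.022 in TzfpGTi/GTi. The others were all in Alkbh1-/-. The left neighbour became 0.051 with a floor of 200 counts, 0.048 with overlaps counted once and 0.032 with only WT and the mutant fitted, and piC_2128 became 0.029, 0.040 and 0.025. Without a filter piC_639 became -0.089 and piC_649 -0.10, and piC_649 was -0.0053 with DESeq2 size factors and with DESeq2's Wald test. With a WT replicate left out, where no test was run, 2 of 124 values moved beyond the WT spread and 14 changed sign. Of these, piC_2122 turned from -1.53 to 0.33 in TzfpGTi/GTi without WT replicate 1 and from 0.30 to -0.49 in Alkbh1-/- without WT replicate 2. The other 12 were within 0.13 of 0 before and within 0.39 after. No paired analysis was possible because the mutant labels carry no replicate number and each mutant has 1 library. Depth limits most the 193 clusters under 40 summed counts, which were not fitted. The causes of these differences were not tested.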
